A study of Mus musculus with 48 samples.

Results

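The genes described here build the peroxisome or work inside it, and they were followed in the kidneys of mice given D-alanine or vehicle. The set was a list of 37 gene symbols, 13 Pex genes and 24 transporters and enzymes. Each symbol was found in both deposited expression tables, which hold 49585 genes. A filter on low values, explained below, kept 36 of the 37, and Abcd2, a transporter of very long-chain fatty acids, was the 1 member left out.

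Kidney RNA was sequenced in 48 libraries from mice labelled WT. They fall into 12 groups of 4 libraries, vehicle and D-alanine at each of CT0, CT4, CT8, CT12, CT16 and CT20, where CT is circadian time in hours. D-alanine is the mirror image of the common amino acid L-alanine, and by its title the series asks how it acts on circadian rhythm. The labels name no dose, route, strain or age, and beyond WT they list no agent or allele that both treatments share.

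Peroxisomes are small organelles bounded by a single membrane that shorten very long-chain and branched-chain fatty acids, oxidise hydroxy acids and amino acids, and break down the hydrogen peroxide which these reactions release. Their matrix enzymes are made in the cytosol and imported by the peroxins, which the Pex genes encode. In the kidney the organelle is most abundant in the proximal tubule, where it also holds D-amino acid oxidase, which breaks down D-alanine, and many of its genes are targets of the nuclear receptor PPAR alpha.

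The 2 deposited tables held 24 libraries each, 2 from every group, and were taken as 2 runs of the experiment, which is an inference. Depth, recovered from the steps between low values, was 7626057 to 14403230 fragments per library. Mitochondrially encoded genes took 28.9% to 47.0% of all values in the first table and 14.9% to 23.4% in the second. Every pair of replicates differed by more than sampling noise, the smallest chi-square per gene between any such pair being 5.69. Kidney markers were present throughout, with 8 proximal tubule markers summing to between 1765 and 4025 FPKM, while 4 adrenal markers summed to at most 2.58 FPKM and 3 lymphocyte markers to at most 5.81, with Cyp11a1, Cyp11b1 and Cd3e under 1 in every library. Fat was present at a low level, since 6 adipocyte markers summed to between 6.34 and 27.6 FPKM in vehicle and between 7.39 and 69.4 in D-alanine, although Lep stayed under 1. In RNA from whole tissue, fewer cells of a type and less RNA per cell cannot be told apart.

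Several members have a close relative in the list. Acaa1a and Acaa1b encode the peroxisomal 3-ketoacyl-CoA thiolases, which carry out the last step of straight-chain oxidation, and both lie on chromosome 9. Their mRNAs were 96.6% identical over 1428 aligned columns, so that the tables may assign fragments of one to the other, and their separate values are uncertain. Eci2 and Eci3, neighbours on chromosome 13 that encode enoyl-CoA isomerases acting on unsaturated chains, were 85.5% identical over 1142 columns. Stretches upstream of a RefSeq start of each gene are shown because the pairs resemble each other in mRNA but much less ahead of these starts. Each is 100 bases, RefSeq sequence on GRCm38.p6, and lies outside every exon of the GENCODE M21 annotation. Those of Acaa1b and Eci3 lie just outside the annotated gene. Those of Acaa1a and Eci2 lie within it, in an intron, because annotated transcripts of both genes begin farther upstream, and the Eci2 stretch ends 137 bases before the RefSeq start.
Acaa1a, chr9:119341194-119341293, + strand: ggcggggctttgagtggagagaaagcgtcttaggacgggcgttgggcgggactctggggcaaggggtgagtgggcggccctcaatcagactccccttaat
Acaa1b, chr9:119157094-119157193, - strand: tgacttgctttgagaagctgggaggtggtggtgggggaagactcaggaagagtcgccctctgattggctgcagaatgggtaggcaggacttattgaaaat
Eci2, chr13:34994282-34994381, - strand: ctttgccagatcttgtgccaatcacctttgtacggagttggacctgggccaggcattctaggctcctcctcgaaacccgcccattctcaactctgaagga
Eci3, chr13:34963811-34963910, - strand: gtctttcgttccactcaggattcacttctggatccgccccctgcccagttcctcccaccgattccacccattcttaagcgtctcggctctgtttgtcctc
Over the 250 bases before the RefSeq start, identity was 48.9% for the thiolase pair and 50% for the isomerase pair. The 433 other pairs of members had a median of 46.0% and a highest value of 51.6%, so neither pair stood outside the members in general.

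Promoter windows of 250 bases before to 50 after the start were matched for 30 of the 37 members, with 35 windows in all. Pex2, Pex19, Hsd17b4, Abcd2, Abcd4, Crat and Amacr had no window and were not searched. Among these, Abcd4, Pex19, Crat and Amacr passed the test for a daily rhythm below. The window letters were searched on both strands for AGGTCA repeated in the same direction with 1 base between the copies, to which PPAR alpha binds with RXR, for CACGTG, the E-box of the clock proteins, and for TTANNTAA, the core of the D-box. No match of one overlapped a match of another. The direct repeat was in 0 of the 35 windows, against 0.0396% of all 32851 windows. CACGTG was in 1, that of the thioesterase gene Acot4, against 7.15% of all. TTANNTAA was in 1, that of Pex7, a receptor for imported enzymes, against 6.0% of all. The Acot4 stretch is shown with the E-box letters in capitals, since it is the only member window that holds them, and Acot4 itself did not pass the test for a daily rhythm below.
Acot4, chr12:84038273-84038358, + strand: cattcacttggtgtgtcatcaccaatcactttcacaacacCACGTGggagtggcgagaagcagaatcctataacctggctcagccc

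The most abundant members were enzymes. Values are FPKM, fragments scaled to gene length and library total, and are given as the mean with the lowest and highest of 48 libraries. Phyh, which starts the breakdown of the methyl-branched phytanic acid, led with 293 FPKM (157 to 418). Catalase, encoded by Cat, followed at 288 (166 to 415), and Pecr, a reductase of enoyl-CoA, at 261 (131 to 384). Acaa1b stood at 251 FPKM, Eci3 at 212, the sterol carrier and thiolase gene Scp2 at 176 and the bifunctional enzyme gene Ehhadh at 156. Pipox, an oxidase of pipecolic acid and sarcosine, was at 149 and the racemase gene Amacr at 104. These 9 were the members at or above 100 FPKM, 19 lay from 10 to 100, and 9 were below 10.

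Within pairs of relatives the levels were unequal. Acaa1b was at 251 FPKM against 43.0 for Acaa1a, and Eci3 at 212 against 39.5 for Eci2. Of the ABC transporters of the peroxisomal family, Abcd3 was at 44.1 FPKM and Abcd4, whose protein is known for handling vitamin B12 at the lysosome, at 15.4. Abcd2 averaged 0.0588 FPKM, was listed at 0 in 7 libraries and reached 0.275 in the highest. Its level was too low for a comparison.

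The peroxins were less abundant than the leading enzymes. Pex6, an ATPase that pulls receptors back out of the membrane, was the highest at 26.1 FPKM (20.9 to 33.4), and its membrane anchor Pex26 was the lowest tested member at 3.56 (2.21 to 5.82). The membrane assembly genes Pex16, Pex19 and Pex3 were at 24.7, 20.7 and 4.22 FPKM. The import receptor gene Pex5, which serves enzymes with the common C-terminal signal, was at 20.9, and Pex7, the receptor for the rarer N-terminal signal, at 3.91. The docking genes Pex13 and Pex14 were at 7.37 and 6.69, and the ubiquitin ligase genes Pex2 and Pex10 at 19.7 and 4.54. Pex11a and Pex11g, which act in peroxisome division, were at 18.8 and 6.88. Partners in a step were thus near in level for docking and apart for the ligases and the export pair, with no test between genes.

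**Figure D1:**
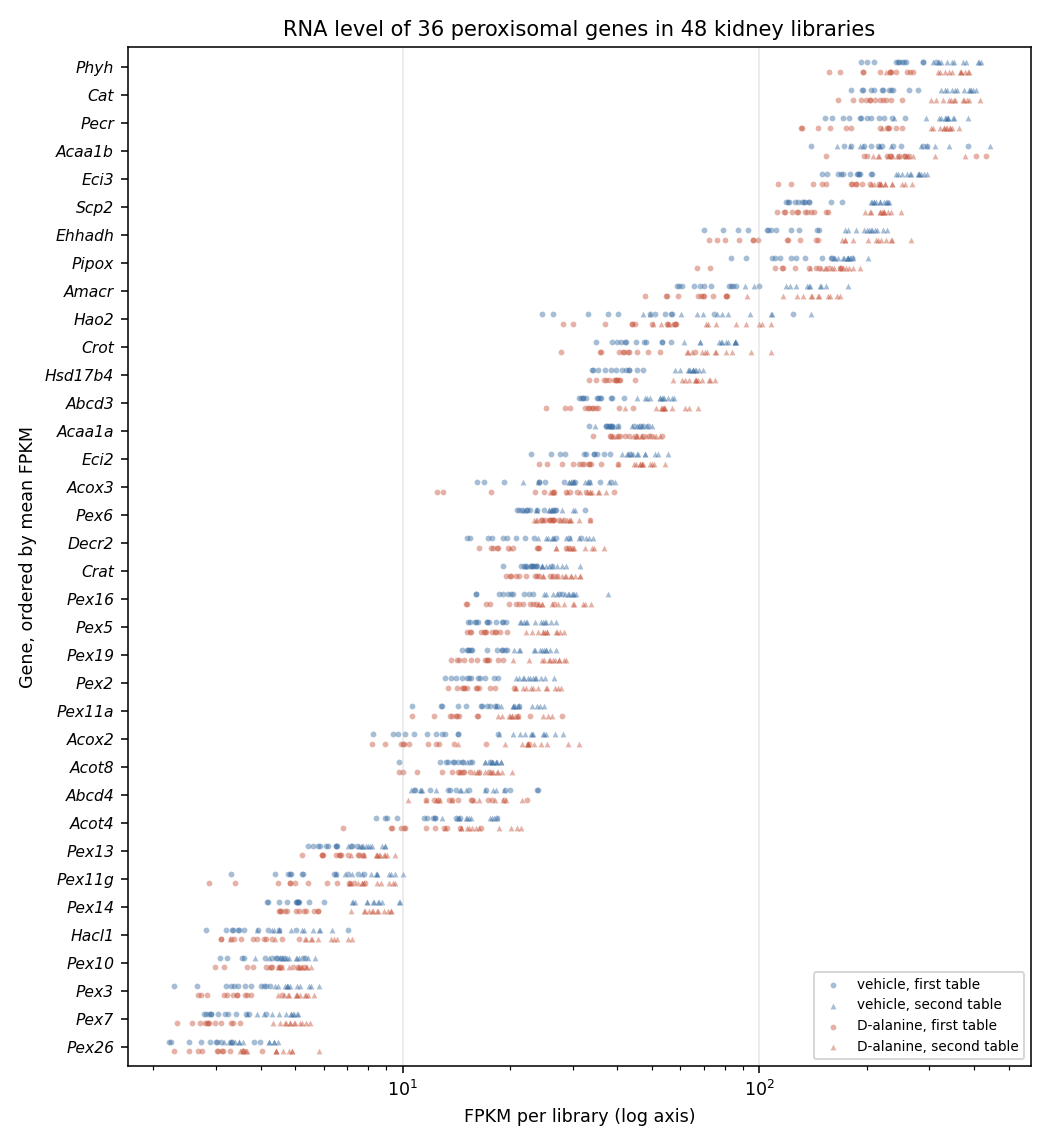
Level of the 36 tested genes in each of 48 libraries, in FPKM on a log axis, with colour for treatment and shape for the deposited table; genes are ordered by mean. For most genes the triangles of the second table lie right of the circles of the first, while the colours overlap.

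The tables differed far more than the treatments. In the ratio of the second table to the first, the median over the 36 members was 1.44, against 1.06 over all genes past the filter, and 35 of the 36 were above 1. Amacr had a ratio of 1.93, Ehhadh 1.92 and Acox2, an oxidase of branched-chain and bile acid intermediates, 1.91. Abcd4 was the exception at 0.940. For Cat the first table spanned 166 to 279 FPKM and the second 304 to 415, with no overlap. Every model below therefore carries the table as a term. The share of mitochondrially encoded genes, given above, differs between the tables in the opposite direction, and its part in this difference was not tested.

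The first comparison was the difference of D-alanine from vehicle, taken as a mean over 6 times, with 24 libraries per treatment, in limma on log2(FPKM + 1) with Benjamini-Hochberg adjustment over 14922 genes. Of the 36 members, 1 was called lower and 0 higher, where 1.74% of all genes were called (1.59% higher and 0.147% lower). At an unadjusted p under 0.05 there were 4 members, against 20.5% of all genes. The 1 gene was Eci3, whose protein moves double bonds so that unsaturated fatty acids can be oxidised. In vehicle the 24 libraries ranged from 149.7 to 295 FPKM with a median of 224, and in D-alanine from 113 to 269 with a median of 207. The ranges overlapped widely. The means were 225 ± 48.9 and 200 ± 40.9 FPKM (SD, n = 24), and Eci3 fell by 0.17 ± 0.05 on the log2(FPKM + 1) scale (SE, adjusted p = 0.0494). It was lower in 9 of 12 pairs formed by a time and a table.

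Values of Eci3 are given for CT0 and CT8, where its fitted difference was lowest, and for CT16, where it was highest. These times were picked for that reason. At CT0 the vehicle libraries had 155, 180, 264 and 280 FPKM, and the D-alanine libraries 122, 113, 210 and 225, the first pair of values in each case being from the first table. At CT8 they had 190, 188, 280 and 260 in vehicle, and 154, 149.5, 217 and 226 in D-alanine. At both times each D-alanine library lay below each vehicle library of its own table. At CT16, by contrast, vehicle had 149.7, 167, 284 and 266, and D-alanine 204, 187, 219 and 257, so the order was turned in the first table. The log2 difference was -0.41 at CT0 (adjusted p = 0.0570), -0.30 at CT8 (adjusted p = 0.280) and 0.04 at CT16, and none of these passed. The treatment by time interaction of Eci3 had an unadjusted p of 0.0799, so a dependence on time was not shown. The call itself sat at the threshold. It was lost after conversion to TPM (-0.11, adjusted p = 0.0556) and without the table term (adjusted p = 0.487), with the first table by itself (-0.11, adjusted p = 0.627), with the second by itself (-0.23, adjusted p = 0.0632), and when any of 33 of the 48 libraries was left out, with adjusted p from 0.0179 to 0.0822 over all 48. The exons of Eci3 overlap those of 4933417A18Rik on the other strand, and without a statement on strand their reads cannot be told apart. Markers of other cell types were mixed in this comparison, where 76.3% of all genes lay above 0. Below 0 were 4 of 5 S3 segment markers, 2 of 3 of the thick ascending limb and 2 of 2 lymphocyte markers. Of the principal cell and of the inner medulla 2 of 4 each were below 0. Above 0 were 6 of 8 proximal tubule, 2 of 3 distal convoluted tubule, 3 of 4 intercalated cell, 3 of 4 podocyte, 4 of 5 red cell and 2 of 3 macrophage markers. All 7 endothelial markers were above 0 (median 0.19, 6 at an unadjusted p under 0.05, 0 called in limma), with sums of 73.04 to 209 FPKM in vehicle and 76.7 to 469.9 in D-alanine. The 4 adipocyte markers tested were above 0 as well (median 0.35, 4 at an unadjusted p under 0.05, 0 called). At CT0 the inner medulla markers summed to 385, 66.7, 33.45 and 37.05 FPKM in vehicle and 313, 708, 51.2 and 22.45 in D-alanine. The proximal tubule sums there were 1887, 2761, 3124 and 2418 in vehicle and 1887, 1765, 2574 and 2941 in D-alanine. The part of all these markers in the difference of Eci3 was not tested.

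**Figure D2:**
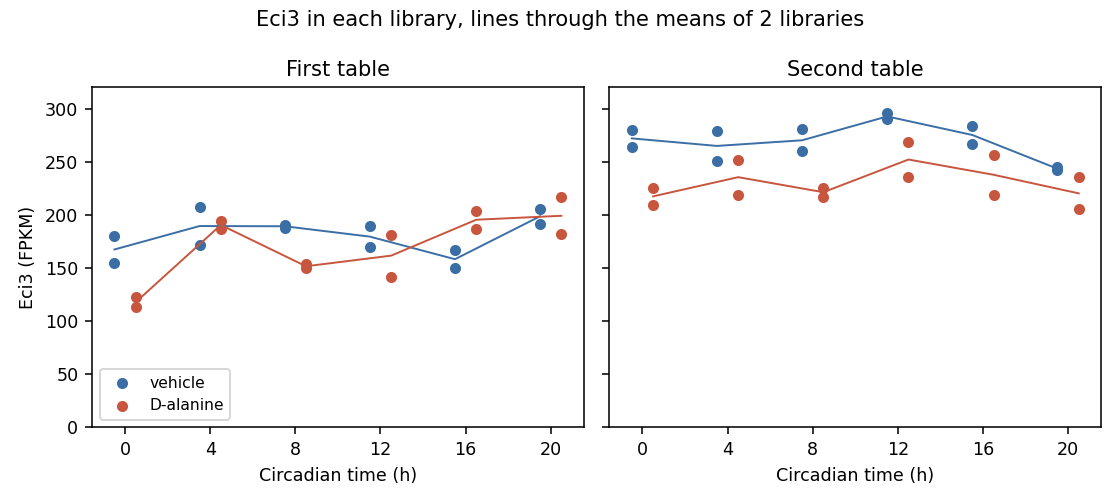
Eci3 in FPKM against circadian time in the first and second table, 1 point per library and lines through the means of 2 libraries. In the second table the D-alanine line lies below the vehicle line at every time, and in the first the lines meet at CT4 and CT20, with D-alanine higher at CT16.

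The remaining members did not pass this test, and their differences were small. The next smallest p-values belonged to Acaa1a, Pex6, Pex26 and Phyh. Acaa1a had a median of 39.6 FPKM in vehicle (33.2 to 50.1) and 45.02 in D-alanine (34.2 to 53.5), with a log2 difference of 0.10 ± 0.03 (SE, adjusted p = 0.0842 in limma) and a higher mean in D-alanine in 11 of 12 pairs of time and table. Pex6 stood at 0.12 (adjusted p = 0.161) and Pex26 at 0.10 (adjusted p = 0.238), each above 0 in 10 of 12 pairs, while Phyh stood at -0.11 (adjusted p = 0.254). Acaa1a is thus the member nearest to a call on the higher side, and its values are uncertain because of its likeness to Acaa1b and because its exons overlap those of Myd88 on the other strand.

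By role, the values were as follows. Over the 13 Pex genes the differences ran from -0.05 to 0.12, with 9 above 0, and none passed. The 3 oxidase and catalase genes were all below 0, with Cat at -0.07, Pipox at -0.06 and Hao2, an oxidase of 2-hydroxy acids, at -0.06. The 7 genes of straight-chain oxidation ran from -0.17 to 0.10 and the 7 of branched-chain, bile acid and 2-hydroxy acid oxidation from -0.11 to 0.06. The median over all 36 members was -0.00 with 17 above 0, against a median of 0.06 and 76.3% above 0 over all genes. This split moved with the scaling. After conversion to TPM 31 members were above 0, and after quantile normalization or centring each library on its median 4 were. The number above 0 was 11 within the first table and 24 within the second. The treatment by table test called 0 of 36 in limma with Benjamini-Hochberg adjustment (0% of all genes), and 2 had an unadjusted p under 0.05 (3.84% of all genes). In that limma test the smallest p-values belonged to Pex7, Pex19, Crat, Amacr and Pex26, in this order, and the treatment difference of Pex7 was higher in the second table by 0.19.

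**Figure D3:**
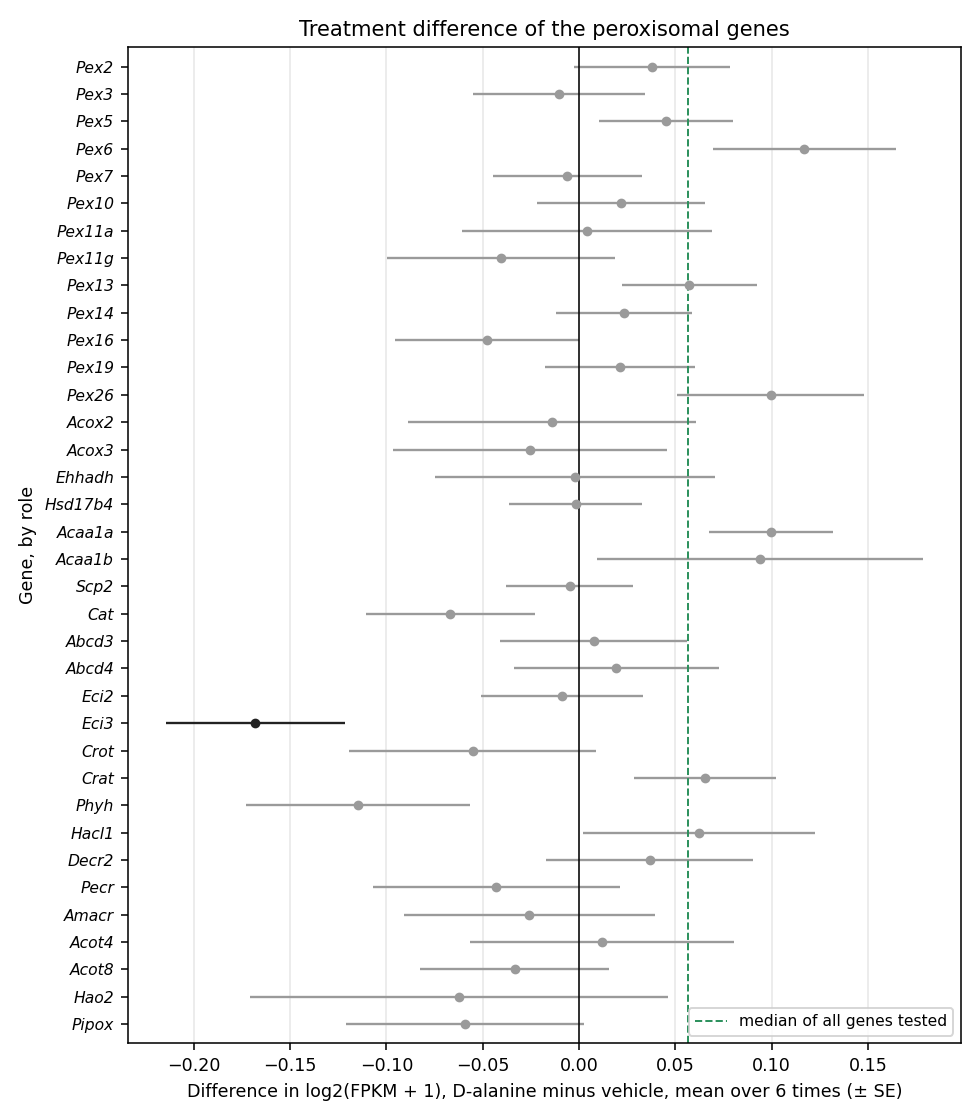
Difference in log2(FPKM + 1) between D-alanine and vehicle, averaged over 6 times, for each of 36 genes with its SE; genes are ordered by role and the dashed line is the median of all genes tested at 0.06. Eci3, drawn in black, lies farthest below 0 at -0.17, and most others lie within 0.10 of 0.

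At single times, with 4 libraries per treatment, 0 members were called at any of the 6 times in limma with Benjamini-Hochberg adjustment. Over all genes 1.14% were called at CT0 and 0% at each of the other times. Members with an unadjusted p under 0.05 numbered 4 at CT0, where 22% of all genes had one, 3 at CT8 (14.8%), 1 at CT16 (4.74%), and 0 at CT4 (2.55%), CT12 (2.27%) and CT20 (2.57%). The limma test of treatment by time called 0 members and 0% of all genes, and at an unadjusted p under 0.05 it had 0 members and 3.53% of all genes. The smallest interaction p-values were those of Eci3, Acox2, Scp2, Pecr and Hacl1, the last being a lyase of 2-hydroxy acyl-CoA (adjusted p = 0.964 for the smallest). The directions at CT8 and CT16 are given next because they leaned to opposite sides.

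At CT16, 33 of 36 members had a difference above 0, with a median of 0.11, against 62.5% and 0.05 over all genes. Acaa1a was the 1 member at an unadjusted p under 0.05. Its vehicle libraries had 38.2, 37.1, 38.7 and 45.9 FPKM and its D-alanine libraries 47.1, 43.2, 44.2 and 48.1, which overlap in 1 vehicle library. Pecr had 171, 193, 322 and 239 in vehicle and 252, 218, 343 and 308 in D-alanine, with a difference of 0.30. The lean was a feature of the first table, where 34 of 36 were above 0, and 19 were so in the second. All 8 proximal tubule markers were also above 0 at CT16 (their sums were 2321, 2313, 2521 and 2633 FPKM in vehicle and 2388, 2740, 2909 and 2668 in D-alanine). So were 5 of 5 S3 segment, 3 of 3 distal convoluted tubule, 4 of 4 adipocyte and 4 of 5 red cell markers. Of principal cell, intercalated cell and inner medulla markers 1 of 4 each was above 0. The counts were 3 of 7 for endothelium, 2 of 4 for podocytes, 1 of 3 for macrophages, 0 of 3 for the thick ascending limb and 0 of 2 for lymphocytes. With a proximal tubule score in the model 18 members were above 0, with rescaling without mitochondrial genes 20, after quantile normalization 21, and without D-alanine CT16 replicate 1 23. Other settings kept the lean, with 33 above 0 with an inner medulla score, 29 after median centring and 35 after conversion to TPM.

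At CT8, 26 of 36 members were below 0, with a median of -0.10, while the median over all genes was 0.10 and 71.9% lay above 0. Hao2 had 124, 74.5, 81.8 and 78.5 FPKM in vehicle and 44.7, 54.95, 85.8 and 53.1 in D-alanine, so that 1 D-alanine library lay among the vehicle values. Acox2 had 18.5, 14.3, 23.1 and 22.8 in vehicle and 12.7, 10.4, 14.3 and 22.4 in D-alanine. Their log2 differences were -0.59 and -0.40, not past the threshold. The tables were opposed at this time, with 5 of 36 members above 0 in the first and 24 in the second. Markers of other parts of the kidney were uneven between libraries here, though none was called. The 4 inner medulla markers summed to 29.8, 44.3, 42.7 and 46.4 FPKM in vehicle and 317, 228, 20.6 and 106 in D-alanine, and the 7 endothelial markers to 80.3, 79.98, 99.7 and 99.9 against 223, 154, 108 and 156. D-alanine replicate 3 lay below every vehicle library for the inner medulla sum, while for the endothelial sum the groups did not overlap. The 4 adipocyte markers tested were all above 0 (median 0.82, 3 at an unadjusted p under 0.05 in limma, 0 called). Above 0 were also 4 of 8 proximal tubule, 1 of 5 S3 segment and 1 of 3 thick ascending limb markers. With an inner medulla score in the model 17 members were above 0, and after conversion to TPM 18. With a proximal tubule score there were 10, after quantile normalization 6 and after median centring 2. Without vehicle CT8 replicate 2 there were 15 above 0, and without vehicle CT8 replicate 3 there were 6. The part of tissue makeup in the values at CT8 and CT16 was not tested further.

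The second comparison concerned time of day. A 24 h cosine was fitted to both treatments together, and its amplitude is the distance from mean to peak on the log2(FPKM + 1) scale. Of the 36 members 14 were called rhythmic in limma with Benjamini-Hochberg adjustment, or 38.9%, where 26.5% of all genes were. Their amplitudes were modest. The median over the 36 members was 0.10 and equalled that over all genes to this precision. They were 4 of the 13 Pex genes and 10 of the 23 transporters and enzymes tested. The straight-chain oxidation genes gave 4 of 7, Acaa1a, Acaa1b, Eci2 and Decr2, the last being a reductase for unsaturated chains. The import receptors Pex5 and Pex7, the docking genes and the export pair Pex6 and Pex26 gave none.

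Peaks gathered in the middle of the cycle. Of the 14 called members, 13 peaked between CT7.23 and CT13.0, inside the windows centred on CT8 and CT12, which span CT6 to CT14. Over all genes called rhythmic, 1329 of 3947, or 33.7%, peaked there. The exception was Hao2, at CT3.01. The windows were set every 4 h to match the sampling, and the concentration was not tested.

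**Figure D4:**
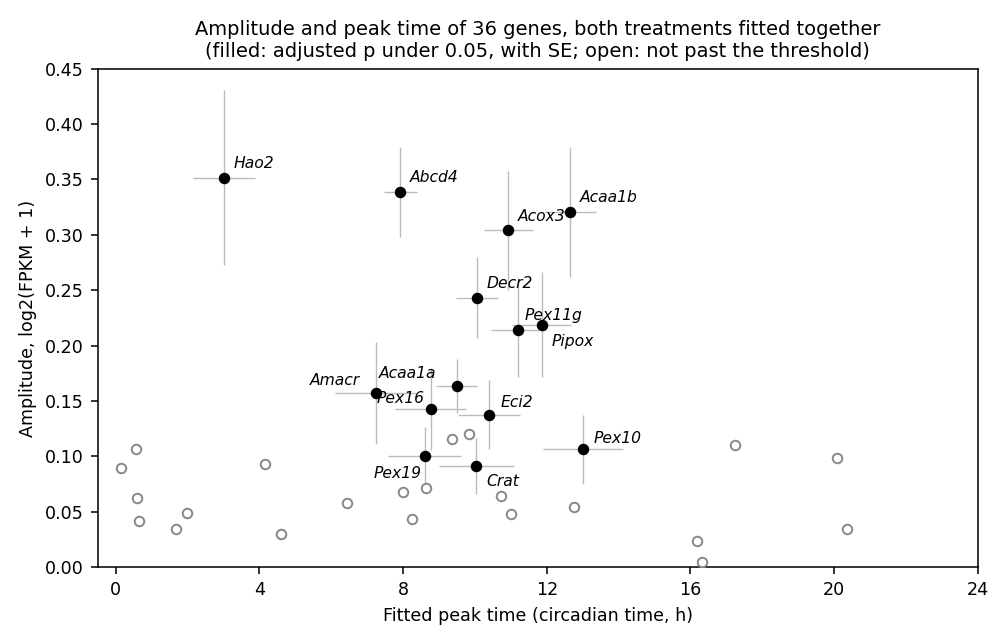
Fitted amplitude on the log2(FPKM + 1) scale against fitted peak time for 36 genes, both treatments together; filled points with SE bars passed the test and open points did not. All filled points lie between CT7.23 and CT13.0 apart from Hao2 at CT3.01, and Abcd4, Acaa1b, Acox3 and Hao2 have amplitudes of at least 0.30.

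Hao2 had the largest amplitude. At CT8 its 8 libraries ranged from 44.7 to 124 FPKM (median 76.5), at CT4 from 55.6 to 140 (median 62.5), and at CT16 from 24.5 to 60.3 (median 49.9). The ranges overlapped, and part of the spread within a time lay between tables. The amplitude was 0.35 ± 0.08 (SE), which puts the peak 1.63-fold over the trough once 1 is added to the FPKM (adjusted p = 0.00271 in limma). In the first table alone it was 0.39 with a peak at CT4.84 and did not pass (adjusted p = 0.0872), and in the second alone 0.40 with a peak at CT1.25 (adjusted p = 0.00706).

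Abcd4 had the smallest p. Its libraries ranged from 15.1 to 23.97 FPKM at CT8 (median 20.3), from 11.6 to 20.01 at CT4 (median 18.7), from 10.3 to 14.4 at CT0 (median 12.4) and from 10.8 to 15.7 at CT16 (median 12.2). All 8 libraries of CT8 exceeded all 8 of CT0. The amplitude was 0.34 ± 0.04 with a peak at CT7.92 and a 1.60-fold difference between peak and trough (adjusted p = 6.38e-08 in limma). It was 0.32 in the first table and 0.35 in the second, peaking at CT8.11 and CT7.74, and both passed.

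Both thiolase genes were called. Acaa1b ranged from 181 to 444 FPKM at CT12 (median 286) and from 139.9 to 257 at CT0 (median 196). Its amplitude was 0.32 ± 0.06 with a peak at CT12.7 and a 1.56-fold difference (adjusted p = 0.000188). Acaa1a ranged from 38.6 to 53.5 at CT12 (median 47.5), from 40.3 to 51.2 at CT8 (median 46.5) and from 33.2 to 39.9 at CT0 (median 37.9), so that CT8 lay wholly above CT0. Its amplitude was 0.16 ± 0.02 with a peak at CT9.49 and a 1.25-fold difference (adjusted p = 5.42e-06). In the first table alone Acaa1b did not pass (0.33, adjusted p = 0.0526). Whether the 2 genes differ in phase was not tested, and fragments that may be assigned to either gene limit any such reading.

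Acox3, the oxidase of branched-chain acyl-CoA, ranged from 26.5 to 39.5 FPKM at CT12 (median 35.3) and from 12.5 to 32.4 at CT0 (median 20.47). The low values at CT0 were those of the first table, 16.1, 16.9, 12.5 and 13.0, and those of the second were 32.4, 24, 26.3 and 25.8. For vehicle and then D-alanine at CT0, the inner medulla markers summed to 385, 66.7, 313 and 708 FPKM in the first table. In the second they summed to 33.45, 37.05, 51.2 and 22.45. The proximal tubule sums were 1887, 2761, 1887 and 1765 in the first and 3124, 2418, 2574 and 2941 in the second. The CT0 values of Pipox and Pex11g below come from the same libraries, and the part of tissue makeup was not tested. The amplitude of Acox3 was 0.30 ± 0.05 with a peak at CT10.9 and a 1.52-fold difference (adjusted p = 0.000112 in limma). Decr2 ranged from 23.7 to 36.6 at CT8 (median 30.4) and from 15.4 to 29.8 at CT20 (median 19.3), with an amplitude of 0.24 ± 0.04, a peak at CT10.1 and a 1.40-fold difference (adjusted p = 7.32e-06). Both genes passed in each table alone, with amplitudes of 0.40 in the first and 0.21 in the second for Acox3, and 0.34 and 0.17 for Decr2.

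Pipox and Pex11g also had higher fitted amplitudes in the first table than in the second, as did 9 of the 14 called members, and the difference between tables was not tested. Pipox ranged from 116 to 201 FPKM at CT12 (median 168) and from 66.9 to 179 at CT0 (median 115), where the first table had 83.3, 92.0, 72.6 and 66.9 and the second 179, 176, 148 and 139. Its amplitude was 0.22 ± 0.05 with a peak at CT11.9 (adjusted p = 0.00180), 0.38 in the first table and 0.07 in the second, where it did not pass (adjusted p = 0.222). Pex11g ranged from 4.47 to 9.99 at CT12 (median 7.66) and from 2.86 to 8.49 at CT0 (median 5.72). Its amplitude was 0.21 ± 0.04 with a peak at CT11.2 (adjusted p = 0.000656), 0.34 in the first table and 0.14 in the second, and it passed in both.

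**Figure D5:**
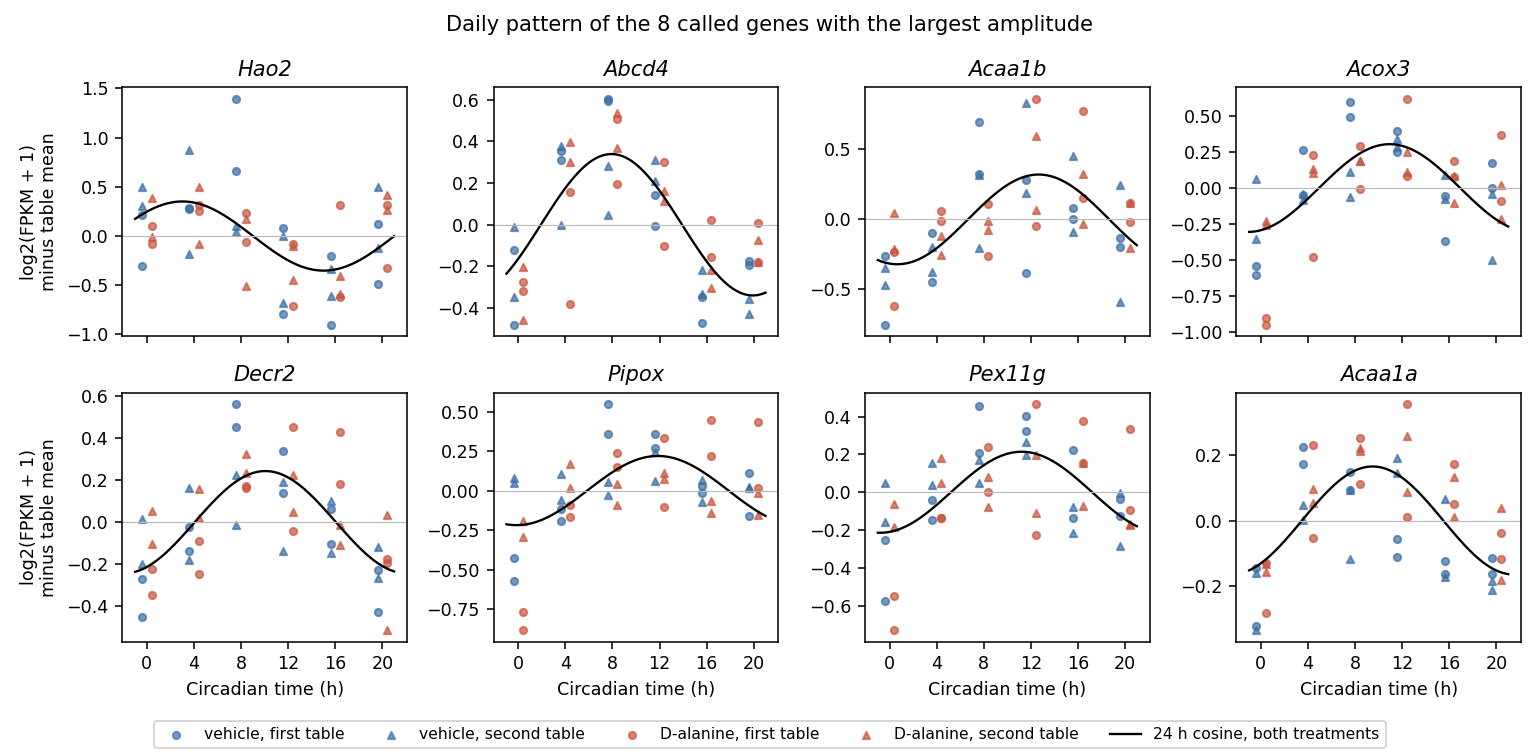
Values of the 8 called genes of largest amplitude in every library, as log2(FPKM + 1) minus the mean of the library's table, against circadian time, with the fitted 24 h cosine of both treatments. Points at CT8 or CT12 lie mostly above the line at 0 for 7 genes, and Hao2 has its low points at CT12 and CT16.

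The other 6 called members had amplitudes of 0.16 or less. Amacr peaked at CT7.23, Pex16 at CT8.77, Pex19 at CT8.60, Eci2 at CT10.4, Pex10 at CT13.0 and the carnitine acetyltransferase gene Crat at CT10.0. Their adjusted p-values ran from 0.00280 for Eci2 to 0.0284 for Amacr. Amacr lost its call when any of 3 libraries was left out, vehicle CT8 replicate 2 (adjusted p = 0.0577), vehicle CT20 replicate 4 (0.0567) and D-alanine CT20 replicate 3 (0.0557), and Pex10 lost it without D-alanine CT0 replicate 2 (adjusted p = 0.0532). With 1 table at a time, 8 of the 14 members were still called in the first and 11 in the second, with peaks outside Hao2 from CT8.11 to CT13.1 and from CT5.95 to CT13.0. With the proximal tubule score in the model 10 of the 14 were called (20.9% of all genes), and Amacr, Pex16, Pex19 and Crat were not. With the inner medulla score 13 of the 14 were called (33.9% of all genes), and Amacr was not. After conversion to TPM Pex10, Pex19 and Crat lost the call, and with times as a factor Amacr, Pex10, Pex19 and Crat did. Of 8 proximal tubule markers 3 were themselves rhythmic, where 26.5% of all genes were. They were Slc34a1 with a peak at CT9.01, Slc22a8 at CT11.7 and Slc5a12 at CT6.76. Markers of other cell types were called as well, 3 of 4 podocyte, 4 of 5 red cell and 2 of 3 distal convoluted tubule markers. So were 2 of 7 endothelial, 1 of 4 intercalated cell and 1 of 2 lymphocyte markers. Those of the thick ascending limb, principal cell, inner medulla, adipocyte and macrophage gave 0. Of 5 markers of the S3 segment 0 were called in limma, 1 at an unadjusted p under 0.05.

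Members that did not pass were, nearest to the threshold, Pex14 (adjusted p = 0.0519), Phyh (0.0680) and Pecr (0.109). Several abundant enzymes did not pass either. Their fitted amplitudes were 0.03 for Cat (adjusted p = 0.728), 0.05 for Scp2 and 0.09 ± 0.05 (SE) for Ehhadh (adjusted p = 0.378). That of Ehhadh was near the member median of 0.10. Pex6 had the smallest amplitude, 0.01 (adjusted p = 0.991). Crot, a carnitine transferase for the shortened chains, stood at 0.11 with a fitted peak at CT0.571 and Acot4 at 0.10 with CT20.1, neither past the threshold.

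The last comparison asked whether D-alanine altered these patterns. Fitted by treatment, 8 members were rhythmic in vehicle (9.77% of all genes were), Pex11g, Acox3, Acaa1a, Acaa1b, Abcd4, Eci2, Decr2 and Hao2. In D-alanine 5 were (8.3% of all genes), Acox3, Acaa1a, Acaa1b, Abcd4 and Decr2, all of them also called in vehicle. The direct test of a difference in rhythm called 0 members and 0% of all genes by limma after adjustment, and with unadjusted p under 0.05 it had 0 members and 2.37% of all genes. Its smallest p-values were 0.0755 for Acot4 (unadjusted) and, in order, those of Hacl1, Scp2, Pex11a and Hao2. A call in vehicle and not in D-alanine, as for Eci2, Hao2 and Pex11g, is therefore no shown difference.

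Fitted peak times lay later in D-alanine for 13 of the 14 members called with both treatments together, by a median of 1.60 h. The shifts ran from -2.68 h for Hao2 to 2.66 h for Amacr. Over all 3947 such genes 67.7% were later, by a median of 0.747 h. The tables gave opposed values. With the first table by itself, 13 of the 14 were later in D-alanine, with a median of 2.999 h, and with the second 3 of the 14, with a median of -1.04 h. In the first table Decr2 peaked at CT9.81 in vehicle and CT12.4 in D-alanine, and in the second at CT8.93 and CT8.05. Acox3 went from CT9.67 to CT12.6 in the first and from CT10.9 to CT9.64 in the second, and Abcd4 from CT7.09 to CT10.1 in the first and from CT7.92 to CT7.58 in the second. Only Acaa1b, Pex11g and Amacr were later in both tables, and Hao2 was earlier in both. Some of these fits had almost no amplitude, such as that of Pipox in vehicle in the second table at 0.02, and a shift within a table was not tested. Amplitudes were lower in D-alanine in 11 of the 14, against 53.7% of all 3947 genes, and in 8 of the 14 within each table.

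Other genes of the organelle and its regulators were read from lists. In the mean comparison of treatments 0 of 12 other peroxin and membrane genes, 0 of 23 other peroxisomal enzymes, 0 of 9 PPAR factors and partners and 0 of 16 other PPAR alpha targets were called in limma. At an unadjusted p under 0.05 there were 1, 3, 3 and 2, where 20.5% of all genes had one and 1.74% were called. Rxra and Rxrb, partners of the PPARs, stood at 0.14 (adjusted p = 0.0532) and 0.15 (adjusted p = 0.0648). In the fit of a shared rhythm 5 of the 12, 8 of the 23, 4 of the 9 and 6 of the 16 were called, against 26.5% of all genes. The peroxisomal protease gene Lonp2 peaked at CT9.12, within the span of the members, while Dnm1l, the fission GTPase, peaked at CT17.5. Paox, an oxidase of polyamines, peaked at CT8.78, Agps, of ether lipid synthesis, at CT7.47, Slc27a2, a very long-chain acyl-CoA synthetase, at CT10.0 and Nudt19, a coenzyme A hydrolase, at CT15.4. Ppara, which encodes PPAR alpha, had an amplitude of 0.37 with a peak at CT11.1 (adjusted p = 0.000530), and Nr1h4, the bile acid receptor gene, 0.45 at CT10.5. Ppard peaked at CT22.5 with an amplitude of 0.92, a 3.59-fold difference. Among the 6 other PPAR alpha targets called, the peaks of the 4 with the smallest p did not share a time. Cpt1a peaked at CT7.39, Acot1 at CT23.8, Mgll at CT22.0 and Acot2 at CT2.51. Cpt2 and Vnn1 were called too. In the vehicle fit their peaks were at CT10.1 and CT8.90, within the span of the members, and Vnn1 did not pass in that fit.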

How the data were processed

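Kidney RNA of 48 mouse libraries was compared. The authors deposited FPKM values in 2 tables, and per the submitters' processing notes the build is GRCm38 (mm10). For the aligner, counter, filters and strand, nothing is stated in the sources read. Samples were grouped by their treatment and time labels. Testing was limited to the 14922 genes that reached an FPKM of 1 in 4 or more libraries. log2(FPKM + 1) was modelled by limma 3.58.1 under R 4.3.3 (empirical Bayes with a trend; 12 groups plus table; 24 h cosine and sine for rhythms), with two-sided tests and Benjamini-Hochberg adjustment over all genes at 0.05, after a check on simulated data. This scale understates changes of low genes. Depth was recovered with a tolerance of 0.05 of a fragment, at which 97.0% to 97.6% of low values were whole. The design text speaks of different mice, but where replicates were technical, p-values measure only that spread. Every member past a threshold was named, or otherwise the 5 of smallest p, and for other lists up to 4, except 1 gene that is not reported here. The members, lists and rule were chosen with earlier results of these data known. Exons of 17 members overlap another gene, in 10 a protein-coding one. Protein targeting signals were not analysed here. Alternatives are given at the end.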

Additional observations from a re-analysis of the deposited data

Results flagged for a closer look

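In groups of 4 libraries, the values of the 9 members described in full were searched for a library that stood apart by Dixon's criterion. Of 108 groups 7 had one, and chance gives about 1 in 20 groups for 4 values of 1 kind, whereas each group here joins 2 libraries of either table. Hao2 had 140 FPKM in vehicle CT4 replicate 4 against 56.4 to 66.8 in the others, and 124 in vehicle CT8 replicate 1 against 74.5 to 81.8. Abcd4 had 14.5 in vehicle CT4 replicate 3 against 19.2 to 20.01, and 10.3 in D-alanine CT0 replicate 4 against 12.2 to 12.6. Acaa1b had 340.5 in vehicle CT16 replicate 4 against 234 to 250.2. Decr2 had 29.8 in D-alanine CT20 replicate 4 against 18.3 to 20.03, and Pex11g 5.0 in D-alanine CT20 replicate 2 against 7.07 to 7.16. These members kept their rhythm calls when any 1 library was left out.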

How the results depend on the processing

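Of 36 members, the 1 called for the mean difference became 0 with no filter, median centring, no table term, either table alone and robust moderation, 2 with the inner medulla score (5.01% of all genes called) and 3 with TPM (17.9%), Eci3 not among the latter. With 1 library left out it was 0 to 1, and Eci3 then stood at -0.19 to -0.15. It kept its call only without one of vehicle CT0 replicate 1, CT4 2, CT12 1, CT16 1, CT20 3 or CT20 4, or of D-alanine CT0 3, CT0 4, CT4 1, CT4 2, CT12 1, CT12 3, CT16 1, CT16 2 or CT20 1. At CT0 the 0 calls became 1 with the proximal tubule score (3.44% of all genes) and 2 with TPM (17.5%), and 0 to 1 with a library left out. The 8 rhythmic in vehicle (9.77% of all genes) became 2 in the first table (1.78%), 3 in the second (4.44%) and 3 without the table term (4.01%). They became 5 with times as a factor (5.17%), and 8 to 10 with a library left out. The 5 in D-alanine (8.3% of all genes) became 1 in the first table (1.56%) and 2 without the table term (3.31%). They became 3 with TPM (7.7%), 8 with the inner medulla score (17%) and 3 when only D-alanine libraries were fitted (4.68%). With a library left out it was 3 (without D-alanine CT0 replicate 1 or CT12 replicate 1) to 8 (without D-alanine CT20 replicate 1). The 14 with both treatments together (26.5% of all genes) became 8 in the first table (12.3%) and 5 without the table term (14%). They became 13 to 17 with a library left out. Of the same 14, 11 kept the call with TPM and 10 with times as a factor, where 25.5% and 20.8% of all genes were called. The counts of 0 at CT4, CT8, CT12, CT16 and CT20, in both interactions and in the rhythm difference stayed 0 under every alternative run. Fitting times as a factor gives no amplitude of single genes. The causes were not tested. Depth limits the low members, since Abcd2 lay near single fragments.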
